A study of Mus musculus with 6 samples.

Results

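Meis1, Meis2, Meis3, Pbx2, Pbx3, Pbx4, Pknox1 and Pknox2 encode transcription factors of the TALE homeobox class, named for an extended loop of amino acids between the first helices of the homeodomain. These 8 genes were chosen by name, from a count table of 46983 genes, and 7 of them were among the 13961 genes that passed the filter on low counts and were tested. Pbx4 did not pass the filter. Pbx proteins bind DNA together with Hox proteins and with Meis or Pknox proteins, and Meis and Pknox proteins bring Pbx into the nucleus and keep it stable. In the embryo these partners help set regional identity in the hindbrain, the limbs and the neural crest, and the loss of Meis2 or of Pbx genes in mice disturbs the face and the outflow tract of the heart.

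The data are poly(A) RNA counts from 6 libraries, 3 control and 3 BAF155/BAF170-deficient, of mouse neural crest cells (NCCs) sorted by GFP from 3 embryos of each genotype at E11.25. BAF155 (Smarcc1) and BAF170 (Smarcc2) are scaffold subunits of the BAF chromatin remodeling complex, and the comparison asks what NCCs express without them. Control embryos carried Wnt1Cre/+, BAF155flox/+, BAF170flox/+ and Rosa26mTmG/+, so they had lost 1 copy of each subunit gene in the same cells. Deficient embryos carried Wnt1Cre/+, BAF155flox/flox, BAF170flox/flox and Rosa26mTmG/+. Cre driven by Wnt1 is also active in the dorsal neural tube, and GFP from the mTmG reporter marks every descendant of a cell that had Cre. Total counts were 9662823, 8191219 and 11661941 in control replicates 1, 2 and 3, and 12633319, 16557026 and 19808620 in deficient replicates 1, 2 and 3.

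Marker genes of the labelled cells were present at low levels. Sox10, a transcription factor of migrating and glial crest, measured 4.36, 7.76 and 2.22 CPM (counts scaled to library size, after TMM normalization) in control replicates 1, 2 and 3, and 1.49, 0.855 and 1.19 CPM in deficient replicates 1, 2 and 3. Sox10 had the largest fold change of the 5 tested glial crest markers (−1.99). It was the only 1 of the 5 without overlap between the groups. Over all tested genes, 16.4% had no overlap with the deficient samples lower. Ednrb, the most abundant of that list, measured 28.4, 20.9 and 20.9 CPM across the controls and 24.4, 22.7 and 22.7 CPM across the deficient samples (log2 fold change −0.01). Foxd3, which marks early crest, was below the filter and no higher than 2.41 CPM in any sample. The 55 embryonic markers listed here, for mesenchymal, sensory, autonomic and glial crest derivatives and the neural tube, summed to 374.8, 528.8 and 304.0 CPM across the controls and to 273.7, 218.3 and 203.9 CPM across the deficient samples. Of these markers 42 were tested.

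As a sum, macrophage markers were far more abundant than the embryonic markers in every library. The 12 listed macrophage markers summed to 12290, 11540 and 13380 CPM in control replicates 1, 2 and 3, and to 13520, 14100 and 14770 CPM in deficient replicates 1, 2 and 3, led by the protease gene Ctss with a mean of 3833 CPM. The deficient sums were all above the control sums. All 12 were tested, none was at 0, and their log2 fold changes ran from 0.15 to 0.25 with a median of 0.19 (1.02 after scaling to embryonic markers). None was called by edgeR, DESeq2 or limma-voom. In edgeR 9 of the 12 were at an unadjusted p under 0.05, as were 3813 of all 13961 tested genes. With such sums, all 6 libraries labelled as NCCs also held macrophage RNA. The level of each TALE gene below is its level in that mixture, where fewer cells of a type and less RNA per cell cannot be told apart.

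Smarcc1, one of the deleted genes (ENSMUSG00000032481.16, chr9:110117708-110240178, GRCm38), measured 42.1, 55.0 and 35.1 CPM in control replicates 1, 2 and 3, and 29.4, 26.4 and 24.5 CPM in deficient replicates 1, 2 and 3. The groups did not overlap, and Smarcc1 was called lower by edgeR (log2 fold change −0.71 for deficient minus control, SE 0.156, adjusted p = 0.0676). Without control replicate 1, deficient replicate 2 or deficient replicate 3 the fold change was −0.74, −0.70 and −0.65, but the adjusted p (edgeR) rose to 0.222, 0.132 and 0.225, in a range of 2.91e-08 to 0.699 over its alternatives. Over all genes edgeR called 0, 264 and 17 in those fits, against 689 with all 6 libraries. Without control replicate 2 the fold change of Smarcc1 was −0.53, and with a trend on exon length removed it was −0.57. Both fell short of the fold threshold of 0.58 that a call required. Smarcc2 (ENSMUSG00000025369.14, chr10:128459248-128490482) measured 91.8, 89.9 and 92.9 CPM across the controls and 85.9, 82.3 and 86.8 CPM across the deficient samples. The groups did not overlap either, but the difference was small and was not called (log2 fold change −0.11, SE 0.0577, edgeR adjusted p = 0.251). Counts over whole genes do not show which exons were removed, so both genes check the labels only in part. With the libraries scaled to embryonic marker genes in place of TMM, the fold changes of Smarcc1 and Smarcc2 were 0.17 and 0.73.

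Among the 7 tested TALE genes, Meis1 and Meis2 fell in the deficient samples, to 46.8% and 50.3% of their control means, and no member was called higher. To be called, a gene had to reach a mean of 2 CPM and a log2 fold change of 0.58 in either direction, with a p no higher than 0.1 after Benjamini-Hochberg adjustment over all tested genes. Over all 13961 tested genes, 4.88% were called lower and 0.0573% higher; with control replicate 1 left out, 0 genes of the table were called (edgeR, with 2547 at an unadjusted p under 0.05). All 7 tested members had negative fold changes with TMM scaling, with a median of −0.51, while the median over all tested genes was −0.02 (quartiles −0.34 and 0.14). Without deficient replicate 1 that median was −0.82, and without deficient replicate 3 it was −0.33. In 2 of the 7 the deficient samples all lay below the controls, and in 0 all above; over all tested genes these shares were 16.4% and 15.0%. When the libraries were instead scaled to 30 embryonic marker genes, Meis1 and Meis2 kept a negative sign and the other 5 turned positive, with a median of 0.31 beside 0.83 for all tested genes.

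**Figure D1:**
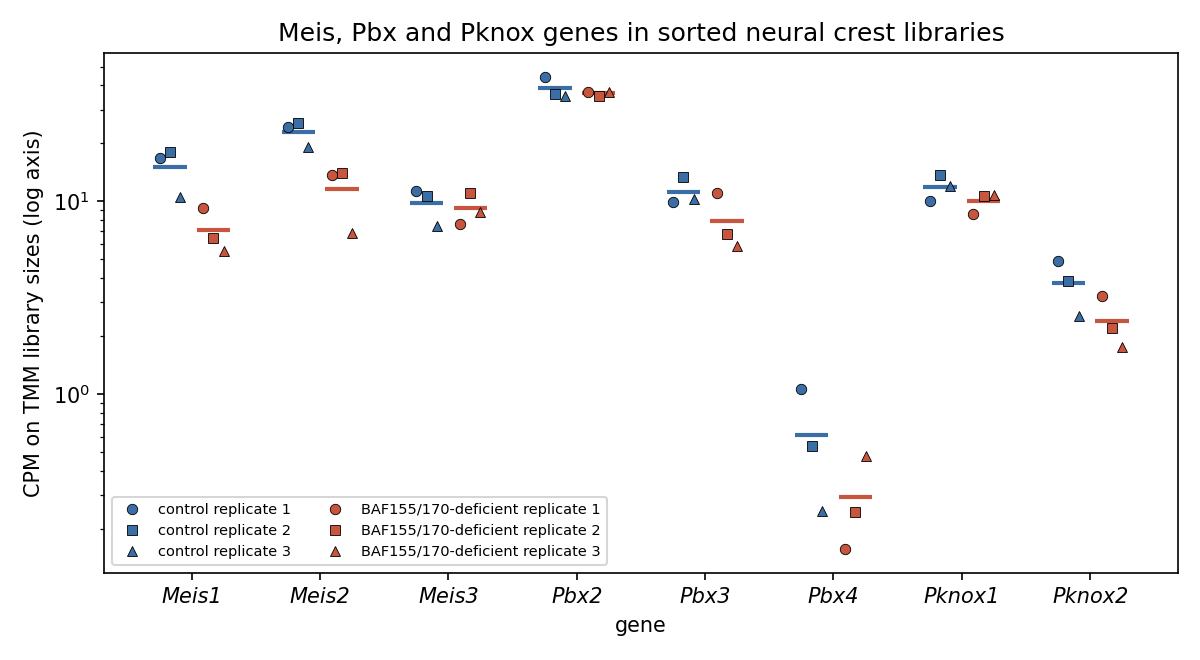
CPM (log axis) of the 8 genes in each library. Points are libraries, with the replicate given by the symbol, and bars are group means; the groups are apart for Meis1 and Meis2 and overlap for the other 6 genes.

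The Meis proteins bind DNA directly and carry the partner domain that docks on Pbx. Meis1 (ENSMUSG00000020160.18, chr11:18879817-19018985, minus strand) measured 16.8, 18.1 and 10.6 CPM in control replicates 1, 2 and 3, and 9.24, 6.48 and 5.56 CPM in deficient replicates 1, 2 and 3. Every deficient sample was below every control, with control replicate 3 and deficient replicate 1 closest to each other. The log2 fold change was −1.10 (SE 0.244), and edgeR called it at an adjusted p of 0.0653. Meis1 is known for its part in blood stem cells, the lens and the heart, and it is also a frequent partner of Hox proteins in leukaemia.

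Meis2 is the Meis gene whose loss in the crest affects the palate, the cranial nerves and the heart valves. It lies on chromosome 2 (ENSMUSG00000027210.20, chr2:115863064-116065839, minus strand) and measured 24.5, 25.4 and 19.1 CPM in control replicates 1, 2 and 3, and 13.8, 14.1 and 6.88 CPM in deficient replicates 1, 2 and 3. The groups did not overlap, and deficient replicate 3 was the lowest library. edgeR gave a log2 fold change of −1.0 (SE 0.281) with an adjusted p of 0.0949, a call close to the threshold of 0.1.

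Both calls depended on which libraries were used. Both held without control replicate 3 (log2 fold change −1.31 for Meis1 and −1.12 for Meis2) and without deficient replicate 1 (−1.32 and −1.14). Neither Meis1 nor Meis2 was called when control replicate 1 or 2, or deficient replicate 2 or 3, was left out. Over all genes edgeR then called 0, 61, 264 and 17 in that order, against 689 with all 6 libraries. For Meis1 the adjusted p (edgeR) then was 0.229, 0.201, 0.127 and 0.195 in that order, within a range of 2.23e-07 to 0.58 over all alternatives, and for Meis2 it was 0.258, 0.290, 0.133 and 0.111, within 7.5e-09 to 0.704. The log2 fold change itself stayed between −1.32 and −0.94 for Meis1 and between −1.18 and −0.72 for Meis2 with any single library left out.

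Meis3, which acts in hindbrain patterning and lies on another chromosome (ENSMUSG00000041420.18, chr7:16175090-16186504, plus strand), measured 11.3, 10.7 and 7.47 CPM in control replicates 1, 2 and 3, and 7.68, 11.1 and 8.83 CPM in deficient replicates 1, 2 and 3. The groups overlapped over most of their range. The log2 fold change was −0.08 (SE 0.198, edgeR adjusted p = 0.829), with 0.04 in place of it without control replicate 1 and 0.03 without deficient replicate 1. With embryonic marker scaling it was 0.82 and passed the call as higher (edgeR adjusted p = 0.0498, with a range of 0.0498 to 0.983 over its alternatives). That scaling called 8076 of all 13961 tested genes higher, and the median over all tested genes was 0.83, so Meis3 did not stand out.

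Ratios within a library do not depend on the scaling of libraries. The count of Meis1 over that of Meis3 was 1.49, 1.69 and 1.42 in control replicates 1, 2 and 3, and 1.20, 0.586 and 0.629 in deficient replicates 1, 2 and 3. For Meis2 over Meis3 the ratios were 2.17, 2.38 and 2.56 in the controls and 1.80, 1.27 and 0.780 in the deficient samples. Both ratios were lower in every deficient sample than in every control. Meis1 over Meis2 overlapped between the groups, at 0.687, 0.711 and 0.554 in the controls and 0.670, 0.461 and 0.807 in the deficient samples. These ratios were chosen after the values had been seen and were given no test.

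Pknox1 and Pknox2, also called Prep1 and Prep2, share the Pbx-docking domain with Meis proteins. Pknox1 is needed in most tissues of the early embryo and lies on chromosome 17 (ENSMUSG00000006705.12, chr17:31564734-31607693, plus strand). Its levels were 10.0, 13.8 and 12.1 CPM in control replicates 1, 2 and 3, and 8.62, 10.7 and 10.8 CPM in deficient replicates 1, 2 and 3. The lowest control lay inside the deficient range, and the difference was not called (log2 fold change −0.24, SE 0.160, edgeR adjusted p = 0.352). It was −0.13 without control replicate 2, −0.15 without deficient replicate 1 and 0.63 with embryonic marker scaling.

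Pknox2 (ENSMUSG00000035934.15, chr9:36890982-37147407, minus strand) had the lowest level per kilobase of the tested members in the controls. It measured 4.89, 3.88 and 2.54 CPM in control replicates 1, 2 and 3, and 3.21, 2.20 and 1.76 CPM in deficient replicates 1, 2 and 3. Deficient replicate 1 exceeded control replicate 3, so the groups overlapped. With a log2 fold change of −0.67 (SE 0.330) it passed the fold threshold but not the adjusted p (0.216 by edgeR). Without control replicate 1 the fold change was −0.42. It was called lower without control replicate 3 (−0.90, edgeR adjusted p = 0.0861) and by limma-voom with sample quality weights (−0.87, adjusted p = 0.0719). Over all genes these 2 settings called 1219 and 1251 lower, against 681 in the main fit. The highest adjusted p among the alternatives of Pknox2 was 0.702, with embryonic marker scaling.

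Pbx proteins are the partners that both Hox and Meis or Pknox proteins hold on to. Pbx2 (ENSMUSG00000034673.14, chr17:34591266-34597400, plus strand), a broadly expressed gene, measured 44.5, 36.3 and 35.2 CPM in control replicates 1, 2 and 3, and 37.0, 35.4 and 36.9 CPM in deficient replicates 1, 2 and 3. The deficient samples lay within the range of the controls. Its log2 fold change was −0.08 (SE 0.0933, edgeR adjusted p = 0.601), with 0.03 without control replicate 1 and 0.76, called higher, with embryonic marker scaling (adjusted p = 0.0746, range 0.0746 to 0.932 over its alternatives). With that scaling 8076 of all 13961 tested genes were called higher, at a median of 0.83 over all tested genes, so Pbx2 did not stand out. Pbx2 overlaps Gpsm3 on the same strand, a gene with a mean of 33.3 CPM, and reads in the shared stretch may have been counted for either gene or for neither.

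Pbx3, which supports neural circuits for breathing and is also expressed in limb and face mesenchyme, is on chromosome 2 like Meis2 (ENSMUSG00000038718.15, chr2:34171457-34373142, minus strand). It measured 9.89, 13.4 and 10.3 CPM in control replicates 1, 2 and 3, and 11.1, 6.78 and 5.89 CPM in deficient replicates 1, 2 and 3. Deficient replicates 2 and 3 were below all controls, while deficient replicate 1 lay among them. The log2 fold change was −0.51 (SE 0.240, edgeR adjusted p = 0.201), and without deficient replicate 1 it was −0.82 and called lower, at an adjusted p of 0.0451 within a range of 0.0451 to 0.501 over its alternatives. Without deficient replicate 3 it was −0.33. Over all genes, 1030 were called lower without deficient replicate 1, against 681 with all libraries.

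Pbx4, expressed mainly in the testis, lies on chromosome 8 (ENSMUSG00000031860.17, chr8:69832491-69872292, plus strand). It had 10, 4 and 3 counts in control replicates 1, 2 and 3, and 2, 4 and 10 counts in deficient replicates 1, 2 and 3. In CPM these were 1.06, 0.535 and 0.246 in the controls and 0.157, 0.244 and 0.475 in the deficient samples. The groups overlapped, and a difference was not tested.

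Levels of different genes were compared as CPM per kilobase of exon, with the annotated exons of all transcripts of a gene merged. In the controls Pbx2 stood first with 10.6 ± 1.39 (mean ± SD, n = 3), ahead of Meis3 with 3.09 ± 0.647. Meis2 (1.91 ± 0.282), Pbx3 (1.83 ± 0.311), Pknox1 (1.72 ± 0.273) and Meis1 (1.44 ± 0.380) followed, each overlapping with the next. Pknox2 (0.365 ± 0.114) and Pbx4 (0.277 ± 0.187) were last and overlapped with each other. Neighbours in this order whose controls did not overlap were Pbx2 and Meis3, Meis3 and Meis2, and Meis1 and Pknox2.

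The deficient samples kept Pbx2 (10.0 ± 0.243 CPM per kilobase, n = 3) and Meis3 (2.90 ± 0.542) at the top, and Meis2 moved from place 3 to place 5. Pknox1 (1.45 ± 0.177) and Pbx3 (1.30 ± 0.458) now stood above Meis2 (0.961 ± 0.337), and Meis1 (0.673 ± 0.182) stayed in place 6. Meis2 overlapped with Pbx3 and Meis1, its neighbours in this order, but not with Pknox1, whose deficient samples (1.24, 1.54 and 1.55) were all above those of Meis2 (1.15, 1.17 and 0.572). In the controls Meis2 and Pknox1 had overlapped. Pknox2 (0.231 ± 0.0721) and Pbx4 (0.132 ± 0.0741) were again last, and the gaps between Pbx2 and Meis3, Meis3 and Pknox1, and Meis1 and Pknox2 were free of overlap. Of the summed per-kilobase level of the 8 genes, Meis1 and Meis2 together made up 15.5%, 17.4% and 14.1% in control replicates 1, 2 and 3, and 11.2%, 9.91% and 6.50% in deficient replicates 1, 2 and 3. This pair was formed after both genes had been seen to be lower, so a gap between the groups follows from the choice, and no test was made. The share of all 3 Meis genes overlapped between the groups, with deficient replicate 2 (29.3%) above control replicate 3 (26.9%).

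The fall of Meis1 and Meis2 was set beside the embryonic markers, which moved in the same direction. As percent of the control mean, Meis1 measured 61.0, 42.8 and 36.7 in deficient replicates 1, 2 and 3, Meis2 measured 59.9, 61.1 and 29.9, and the summed embryonic markers measured 68.0, 54.2 and 50.7. Col1a1 was the most abundant mesenchymal crest marker, and of the 15 tested markers on that list 8 were called, all of them lower, against 4.88% called lower over all tested genes (median log2 fold change −0.99, and −0.10 with embryonic marker scaling). Markers of that list are among those that set the embryonic scale, so their scaled median was largely fixed in advance. Per 1000 CPM of the summed embryonic markers, Meis1 was at 44.8, 34.2 and 34.8 CPM across the controls. Across the deficient samples it was at 33.8, 29.7 and 27.2 CPM, all lower. Control replicate 2 (34.15) and deficient replicate 1 (33.77) were nearly equal. Meis2 overlapped on that scale, at 65.3, 48.1 and 62.9 CPM across the controls and 50.4, 64.4 and 33.8 CPM across the deficient samples. Pbx2 turned around, from 119, 68.6 and 116 CPM to 135, 162 and 181 CPM, all deficient samples being higher. The share of all tested genes without overlap on this scale was not computed. It is therefore not known whether Meis1 or Pbx2 stands out there. With edgeR and embryonic marker scaling neither Meis gene was called (log2 fold change −0.23 for Meis1 and −0.16 for Meis2), and the part that cell composition had in their fall was not tested.

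**Figure D2:**
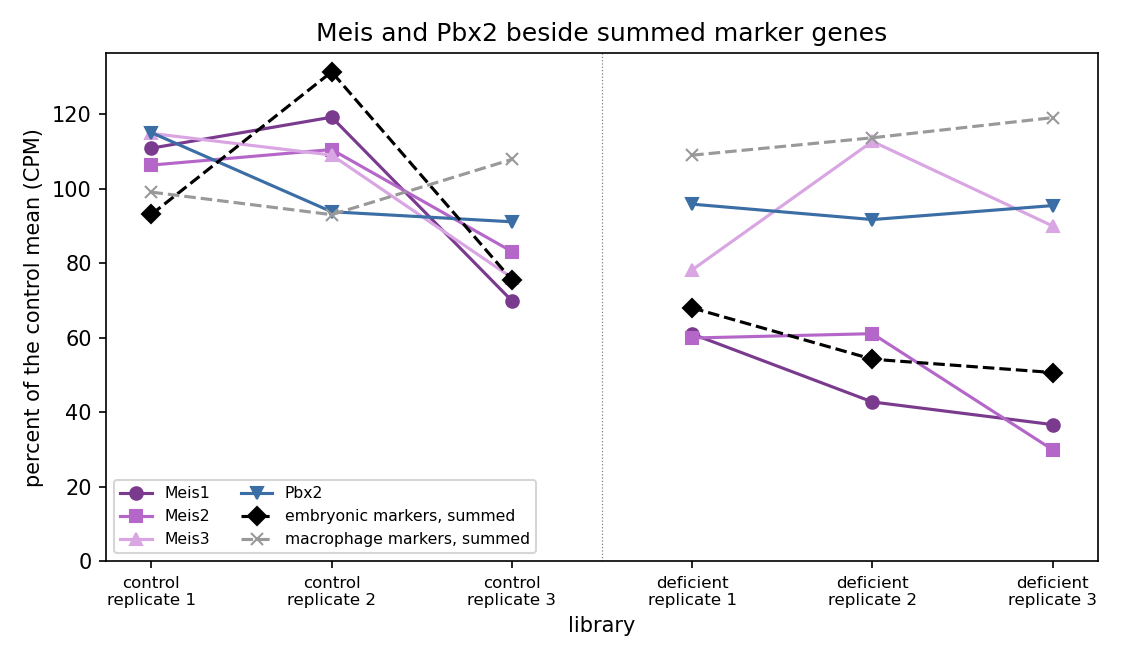
Level of each library as percent of the control mean, in CPM, for Meis1, Meis2, Meis3, Pbx2 and the summed embryonic and macrophage markers. Lines join the libraries of a group only to guide the eye; in deficient replicate 3 Meis2 is at 29.9% and Pbx2 at 95.5%.

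Genes that varied most like a member over the 6 libraries were sought among 10737 named genes, by the root mean square difference of centred log2 CPM. For Meis2, the most abundant Meis gene in CPM, they were Foxp2 (0.0839), Cip2a (0.0893), Zfp608 (0.0915), Neo1 (0.0959) and Tub (0.0961). For Pbx2 they were Lin54 (0.0341), Jagn1 (0.0368), Fiz1 (0.0377), Wwox (0.0386) and Dhx34 (0.0399). For Pknox1 they were D10Wsu102e (0.0607), Cacnb3 (0.0618), Comtd1 (0.0621), Haus2 (0.0624) and Mrps26 (0.0633). Since these genes were picked for their likeness over the same libraries, their own differences between the groups follow from the choice and are not given.

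The other TALE homeobox genes, Tgif, Irx and Mkx, numbered 9, of which 7 were tested, and 2 were called lower and 0 higher, where 4.88% and 0.0573% of all tested genes were. With TMM scaling 6 had negative and 1 positive fold changes, with a median of −0.87 (0.00 with embryonic marker scaling). Irx3, a patterning gene of the neural tube and limb, measured 5.85, 7.22 and 3.45 CPM in control replicates 1, 2 and 3, and 2.74, 2.26 and 1.28 CPM in deficient replicates 1, 2 and 3. Irx3 had the largest fold change of the list (log2 fold change −1.40, SE 0.352, edgeR adjusted p = 0.0702). Irx2 measured 3.94, 4.68 and 3.12 CPM across the controls and 2.35, 2.32 and 1.71 CPM across the deficient samples (log2 fold change −0.87, SE 0.281, edgeR adjusted p = 0.0949). In 3 of the 7 tested genes, Irx2 and Irx3 among them, the groups did not overlap, with the deficient samples lower. The same held for 16.4% of all tested genes. Tgif1, a corepressor of TGF-beta signaling and the most abundant gene of the list at a mean of 71.1 CPM, was at the other end with a log2 fold change of 0.08 (edgeR adjusted p = 0.487), and 0.14 without deficient replicate 1, 0.12 without control replicate 3, 0.05 without control replicate 2 and 0.03 without deficient replicate 3. Neither Irx call held when control replicate 1 or 2, or deficient replicate 2 or 3, was left out, and the list then had 0 calls. Over all genes the same fits called 0, 61, 264 and 17 in that order, against 689 with all libraries. The log2 fold changes then ran from −1.47 to −1.12 for Irx3 and from −0.95 to −0.73 for Irx2, still past the fold threshold.

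**Figure D3:**
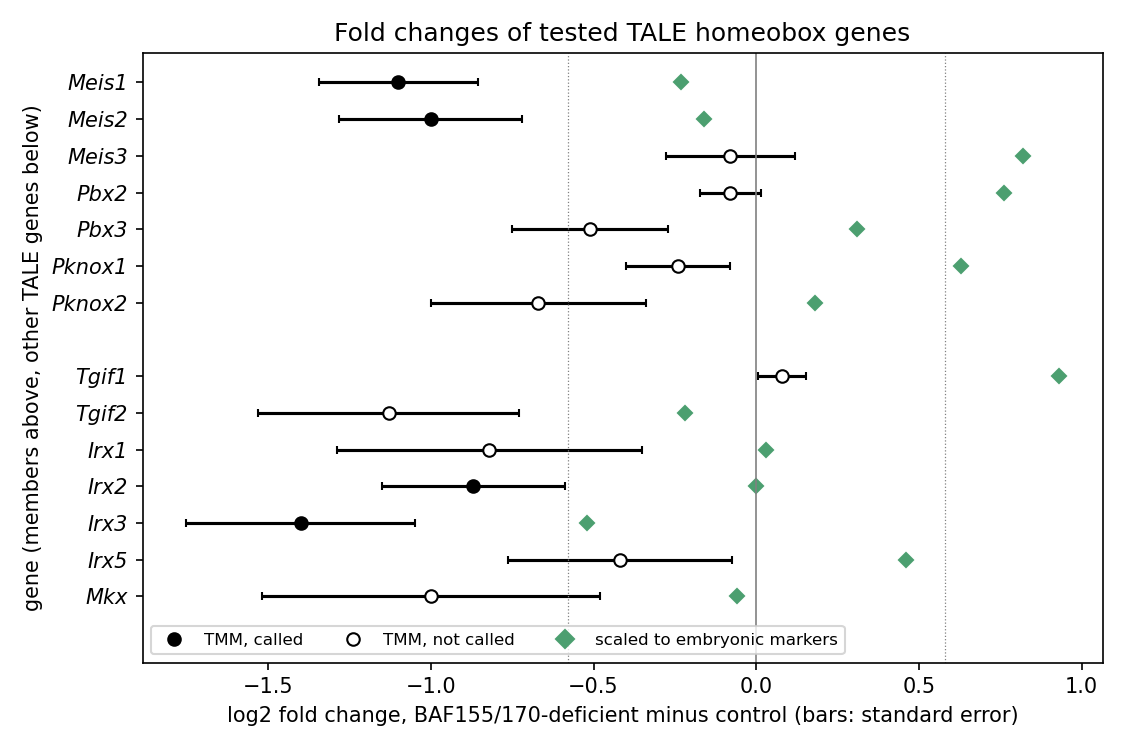
Log2 fold change, deficient minus control, of the 7 tested members (above) and the 7 other tested TALE genes (below). Circles with standard errors are edgeR values with TMM scaling, filled where called, diamonds are values with embryonic marker scaling, and dotted lines mark the fold threshold of 0.58; Meis1 lies at −1.10 and moves to −0.23, Tgif1 at 0.08 and moves to 0.93.

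Hox proteins are the classical partners of Pbx and Meis and set position along the body axis. Of 39 listed Hox genes, 21 were tested, and all 21 had negative fold changes with TMM scaling (median −0.76; 0.10 with embryonic marker scaling), from −1.53 for Hoxd8 to −0.22 for Hoxd3. Those signs were not stable for every gene: Hoxa6 (0.08), Hoxc5 (0.05) and Hoxd3 (0.07) were positive without control replicate 2, Hoxd3 also without deficient replicate 2 (0.02) and Hoxc5 also without deficient replicate 3 (0.02). Without deficient replicate 1 Hoxd3 was at −0.66 and Hoxc5 at −1.52, and Hoxd8 at −2.33 without deficient replicate 2. A single gene of the 21, Hoxa5, was called, which is about the share called lower over all tested genes (4.88%). It measured 2.87, 5.22 and 3.45 CPM in control replicates 1, 2 and 3, and 2.04, 1.41 and 0.950 CPM in deficient replicates 1, 2 and 3. Its groups did not overlap (log2 fold change −1.41, SE 0.360, edgeR adjusted p = 0.0719). The same held for 4 of the 21 Hox genes and 16.4% of all tested genes, with the deficient samples lower. Other settings called between 0 and 8 Hox genes, with 0 when control replicate 1 or 2, or deficient replicate 2 or 3, was left out, and 8 without control replicate 3. Over all genes edgeR called 0, 61, 264 and 17 in the former fits, in that order, and 1245 in the latter, against 689 with all libraries. Hoxb9 was the most abundant Hox gene at a mean of 6.98 CPM.

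Cofactors described to bind Pbx, Meis or Pknox were all 8 tested. None was called by edgeR, with 3 at an unadjusted p under 0.05, and 1 was called by DESeq2 and 1 by limma-voom. Of all 13961 tested genes, 3813 had an unadjusted p under 0.05 in edgeR, and DESeq2 called 889 and limma-voom 836. The median log2 fold change of the cofactors was −0.14 (0.72 with embryonic marker scaling), with 5 negative, 2 positive and Hdac3 at 0.00. That median was −0.25 without deficient replicate 2 and −0.05 without deficient replicate 3. Myh10, a nonmuscle myosin heavy chain that holds Pbx in the cytoplasm, measured 69.2, 81.1 and 49.5 CPM across the controls and 46.7, 32.0 and 20.6 CPM across the deficient samples. The groups did not overlap, as in 3 of the 8 cofactors and 16.4% of all tested genes with the deficient samples lower. The adjusted p of Myh10 was 0.169 (edgeR, log2 fold change −1.02, SE 0.370). Pbxip1, which also binds Pbx, was the most positive at 0.15 (edgeR adjusted p = 0.198). Crebbp, a histone acetyltransferase, was at an adjusted p of 0.0780 but fell short of the fold threshold (edgeR log2 fold change −0.54, SE 0.137).

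Genes with described enhancers bound by Meis, Pbx or Pknox in some tissue numbered 11, and 6 of them were tested. None was called by edgeR, DESeq2 or limma-voom. In edgeR 1 of the 6 had an unadjusted p under 0.05, as had 3813 of all 13961 tested genes. The median log2 fold change of the 6 was −0.71 (−0.43 without deficient replicate 3, and 0.09 with embryonic marker scaling), with 5 negative and 1 positive. Pax6, an eye and neural tube gene, was lowest at −0.85 (edgeR adjusted p = 0.204), and Aldh1a2, an enzyme of retinoic acid synthesis, was highest at 0.21 (edgeR adjusted p = 0.672). Pax6 was at −0.40 without control replicate 1. Aldh1a2 was at 0.07 without deficient replicate 2, 0.12 without control replicate 3 and 0.32 without control replicate 2. Pax3, the most abundant of the list and a gene of the dorsal neural tube and early crest, had a mean of 6.50 CPM. The groups overlapped for Pax3 and Aldh1a2. In 1 of the 6 genes, Pax6, the deficient samples were all lower, as in 16.4% of all tested genes.

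The coding sequences were compared because closely similar genes can share reads. All 8 genes encode a TALE homeodomain whose loop holds proline-tyrosine-proline. In GENCODE M21 transcripts the 45 coding bases around this loop were read for each gene, and 5 of them are shown 5′ to 3′ on the coding strand, with the loop codons in capitals.
Meis1: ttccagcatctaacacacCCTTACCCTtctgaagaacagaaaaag
Meis2: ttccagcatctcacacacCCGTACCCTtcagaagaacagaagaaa
Meis3: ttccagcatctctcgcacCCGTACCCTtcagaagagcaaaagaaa
Pbx2: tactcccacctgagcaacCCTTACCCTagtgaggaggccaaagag
Pknox1: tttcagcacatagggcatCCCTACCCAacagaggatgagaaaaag
In this window Meis2 differed from Meis1 at 5 bases, Meis3 at 9, Pknox2 at 11, Pknox1 at 14, Pbx2 and Pbx3 at 17 each and Pbx4 at 19. The window of Pbx2 (chr17:34594637-34594681, plus strand), that of Pbx3 (chr2:34204816-34204860, minus strand) and that of Pbx4 (chr8:69866523-69866567, plus strand) each lay within exon 5 of the transcript used. In the 3 Meis genes and both Pknox genes the window instead ran across the junction of exons 8 and 9, in Meis1 from chr11:18905736 to chr11:18941673 on the minus strand.

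Over the whole homeobox, Meis1 and Meis2 were identical at 84.1% of bases, Meis1 and Meis3 at 84.7%, Pbx2 and Pbx3 at 82.5% and Pknox1 and Pknox2 at 78.3%. Between families identity was lower, at 65.1% for Meis1 and Pknox1 and 50.8% for Meis1 and Pbx2. Shared runs were searched over whole transcripts, noncoding parts included, and not only over the homeobox. The longest run of bases shared without a mismatch by any transcripts of 2 members was 42, for Meis2 and Pknox2. It was 32 for Meis1 and Meis2. Where in the transcripts these runs lie was not recorded. How the counting treated reads that map to several places is not given in the sources used here.

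Promoter windows of 300 bases, from 250 before to 50 after the start of the gene (RefSeq, GRCm38.p6), were matched by symbol for 5 of the 8 genes, Meis1, Meis2, Meis3, Pbx2 and Pbx4. The Meis and Pknox core motif TGACAG and the Pbx-Hox motif TGATTGAT were searched on both strands. TGACAG occurred in 19.2% of 32851 promoter windows and TGATTGAT in 0.746%, and neither occurred in the 5 windows, which says only that these letters are not in them.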

How the data were processed

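RNA of sorted NCCs from 3 control and 3 BAF155/BAF170-deficient samples was analysed from the deposited counts per gene, whole numbers that the authors made without normalization. Libraries were poly(A)-selected and strand-specific, and the authors aligned paired-end reads to GRCm38; the submitters' processing notes name FastQC 0.11.7, cutadapt 1.18, STAR, featureCounts and limma. The annotation release and strand setting of the counting are not given in the sources used here, so genes that overlap on either strand may share reads.

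Identifiers were matched without version to GENCODE M21, which named 46488 of 46983 genes; coordinates are from M21. Counts were fitted in R 4.3.3 with edgeR 4.0.16 (filterByExpr with minimum count 10 and minimum total count 15, TMM, robust quasi-likelihood, condition only), and p-values were adjusted by Benjamini-Hochberg over 13961 genes. The common biological coefficient of variation was 12.8%. The fold, adjusted p and CPM thresholds are those of the study. The pipeline was tested on simulated data. Alternatives were DESeq2 1.42.0, limma 3.58.1 with voom (plain or with sample quality weights), library totals, other filters and thresholds, a replicate block, a lowess correction (span 0.3) for exon length, scaling to 30 embryonic markers with at least 2 CPM, and each library left out. Sequences were handled with Python 3.11.15 and Biopython 1.88, and plots drawn with matplotlib 3.10.9.

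The members and lists were chosen with earlier results of these data known. Named genes are the 8 members, Smarcc1 and Smarcc2, called genes and those with the largest and smallest fold change of each pathway list, and for the most abundant gene of each family the 5 genes nearest to it over the 6 samples (at least 2 CPM, pseudocount 0.1, predicted genes left out). Others (Sox10, Ednrb, Foxd3, Ctss, Col1a1, Hdac3, Crebbp, Hoxb9, Hoxa6, Hoxc5, Pax3 and Gpsm3) were picked after their values were seen. For the marker lists whose median is not given above, the median log2 fold change was −0.96 for sensory neurons (10 tested, 1 called lower). It was −1.34 for autonomic cells (4 tested, 0 called by edgeR, DESeq2 or limma-voom, with 2 at an unadjusted p under 0.05 in edgeR). Glial crest had −0.98 (5 tested, 1 called lower), the neural tube −0.80 (8 tested, 1 called lower) and blood progenitors −0.26 (6 tested, 1 called lower). Erythroid cells had −0.24 (8 tested, 0 called by edgeR, 2 by DESeq2 and 1 by limma-voom, with 3 at an unadjusted p under 0.05 in edgeR). Endothelium had 0.06 (5 tested) and neutrophils 0.51 (3 tested), both with 0 called by edgeR, DESeq2 or limma-voom. In edgeR 1 and 2 of them were at an unadjusted p under 0.05. Over all 13961 tested genes edgeR called 4.88% lower, and 3813 were at an unadjusted p under 0.05. No epithelial marker was tested. Several of these medians depended on single libraries. Dropping control replicate 2 gave −0.59 for sensory neurons, −0.39 for glial crest, −0.47 for the neural tube and −0.05 for erythroid cells. Dropping deficient replicate 3 gave −0.40 for the neural tube and −0.54 for erythroid cells, whose median was also −0.03 after dropping deficient replicate 2 and −0.45 after dropping control replicate 3. For endothelium it was 0.10 after dropping control replicate 1 and 0.11 after dropping control replicate 3.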

Additional observations from a re-analysis of the deposited data

How the results depend on the processing

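Meis1 and Meis2 stayed negative under every alternative run, and both were called with DESeq2, limma-voom with and without weights, library totals, both other filters, the length correction and the replicate block. Scaling to embryonic markers ended both calls and turned the other fold changes: Meis3 0.82, Pbx2 0.76, Pbx3 0.31, Pknox1 0.63, Pknox2 0.18, Smarcc1 0.17 and Smarcc2 0.73. It takes the average embryonic marker as unchanged, which moves the median of all tested genes from −0.02 to 0.83, and it called 1 other TALE gene, 0 Hox genes, 4 cofactors, 1 bound target and 8168 genes in all (92 lower, 8076 higher), against 689 with TMM (681 lower, 8 higher).

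With 1 library left out, the number called ran from 0 to 3 for the members, 0 to 2 for the other TALE genes, 0 to 8 for Hox genes, 0 to 2 for cofactors, 0 to 1 for bound targets and 0 to 1245 for all genes; the 0 for all genes came with control replicate 1 left out (edgeR; 2547 genes at an unadjusted p under 0.05). The log2 fold change of Meis3 ran from −0.26 to 0.04 and that of Pbx2 from −0.15 to 0.03.

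At an adjusted p of at most 0.05, 0 members, 0 other TALE genes, 0 Hox genes and 94 of all genes were called, and with no fold or CPM threshold 1 cofactor and 1665 genes. Sample quality weights called 3 members, Meis1, Meis2 and Pknox2. Other TALE genes numbered 1 with DESeq2 and 1 with library totals. Hox genes numbered 4 with DESeq2, 2 with limma-voom, 7 with sample quality weights, 3 with library totals, 6 with no filter on low counts and 4 with the length correction. Cofactors numbered 1 with DESeq2, 1 with limma-voom and 1 with weights, and bound targets 1 with weights and 1 with no filter. Weights called 1278 genes in all. The cause of these differences was not tested.

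With a replicate block 2 members, 7 Hox genes, 1 cofactor, 1 bound target and 1164 genes in all were called. Same-numbered samples correlated at 0.028, −0.034 and 0.293 in their deviations from the group means, so the numbers were not taken to pair the samples. These are the numbers of the sample titles; another set of sample labels numbers the deficient samples 2, 3 and 4, by which control replicate 2 goes with deficient replicate 1 (0.261) and control replicate 3 with deficient replicate 2 (0.00). No block was run with that numbering. Not every sample correlated best with its own number.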
